A study of Mus musculus with 16 samples.

Results

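Lrg1 and 9 genes of vascular inflammation (Vcam1, Icam1, Selp, Sele, Ackr1, Vwf, Il1r1, Il6st, and Socs3) were described in RNA-Seq of CD11b+ brain cells. The 10 genes were taken by name from the 24421 rows of the count table, and all 10 had a row. Lrg1 was selected on its measured counts, since its rise in MAL-BG was already known from these data, and the others for their place in the same biology. Of the 10, 8 passed the filter on low counts and were among the 14565 genes tested, while Selp and Sele did not pass it.

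All mice were weaned female C57BL/6J mice. CON mice (n = 4) ate standard chow, MAL mice (n = 5) ate an isocaloric diet low in protein and fat for a month, and MAL-BG mice (n = 7) ate that same diet and were also gavaged repeatedly with a mix of E. coli and Bacteroidales, while the mice without bacteria were gavaged with PBS. No group on the standard diet received the bacteria, so in the comparison with CON the diet and the bacteria cannot be told apart. Each library came from 1 mouse, and the cells were held back from dissociated brain with magnetic beads against CD11b, a surface integrin of microglia and other myeloid cells. The labels name cortical tissue, and the methods of the study name whole cerebra. Libraries held 10312703 to 13461574 counts in CON, 10864121 to 12819982 in MAL, and 14191791 to 18705202 in MAL-BG. Levels are given as CPM, counts per 1000000 on library sizes scaled by the TMM method, and a replicate number is the running number of a library in the table.

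LRG1 is a secreted leucine-rich glycoprotein that modulates TGF-beta signaling in endothelium, and neutrophils store it in granules. White blood cells leave the blood in steps: selectins on activated endothelium (P-selectin, Selp, and E-selectin, Sele) slow them, and ICAM-1 and VCAM-1 then hold their integrins. Cytokines set this program in motion, IL-1 through Il1r1 and IL-6 through a receptor that shares the signaling chain gp130 (Il6st), which activates STAT3, and SOCS3 is induced by STAT3 and shuts gp130 off again.

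Against CON, Lrg1 was 24.9-fold higher in MAL-BG, Il6st rose 1.70-fold, and Icam1 and Socs3 fell 4.26-fold and 4.37-fold. The endothelial genes Vcam1, Vwf, Il1r1, and Ackr1 did not pass the test in either MAL-BG comparison, and Selp and Sele were near 0 counts in all groups. With Lrg1 left aside, 3 of the 7 genes tested were called in each comparison, 1 higher and 2 lower. Of all genes tested, 33.1% were called in MAL-BG against CON, 11.4% higher and 21.7% lower, and 30.4% against MAL, 10.2% higher and 20.2% lower. A gene was called at an adjusted p under 0.05 with a log2 fold change over 0.58 in either direction. Between MAL and CON, 0 of the 8 genes tested passed the test, as did 0% of all genes.

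The stretches upstream of the genes that differed are shown because Icam1 and Socs3 fell by a like amount. They are RefSeq sequences on GRCm38.p6, written 5′ to 3′ on the strand of the gene, and capitals mark the STAT motif TTCNNNGAA. The Lrg1 stretch (chr17:56122002-56122196, minus strand) and the Il6st stretch (chr13:112463820-112464069, plus strand) hold no such motif. The Icam1 stretch (chr9:21015690-21015939, plus strand) holds 1, from base -42 to base -34 before the start. For Socs3 the motif, from base -154 to base -146, is shown with 10 bases on each side (chr11:117969502-117969530, minus strand). The RefSeq start of Socs3 lies inside the GENCODE M21 model given with its values, so this stretch is upstream of the RefSeq start only.
Lrg1: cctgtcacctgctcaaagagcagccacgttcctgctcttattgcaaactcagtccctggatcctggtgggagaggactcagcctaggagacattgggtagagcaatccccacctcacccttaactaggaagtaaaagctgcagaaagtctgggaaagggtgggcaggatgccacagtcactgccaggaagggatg
Il6st: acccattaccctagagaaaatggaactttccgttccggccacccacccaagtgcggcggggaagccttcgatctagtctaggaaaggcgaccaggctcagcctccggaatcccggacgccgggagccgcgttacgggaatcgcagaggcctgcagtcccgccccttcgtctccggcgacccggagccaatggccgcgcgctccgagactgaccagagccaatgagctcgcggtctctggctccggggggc
Icam1: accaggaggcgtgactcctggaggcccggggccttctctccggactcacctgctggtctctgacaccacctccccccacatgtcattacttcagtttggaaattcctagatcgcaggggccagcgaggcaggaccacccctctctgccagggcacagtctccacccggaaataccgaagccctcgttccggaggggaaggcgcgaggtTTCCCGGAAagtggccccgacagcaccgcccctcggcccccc
Socs3: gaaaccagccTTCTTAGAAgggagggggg
RefSeq windows were found for 8 of the 10 genes, all except Vcam1 and Vwf. Searched on both strands in the 250 bases before the start, TTCNNNGAA was present in those of Icam1, Socs3, and Sele, and in 2306 of 32851 windows of all genes (7.02%). The NF-kB consensus was present in a second window of Il1r1 and in 1281 of all windows (3.9%). It was searched only in a strict form that begins with GGG on either strand, so looser forms were not counted in any window. A match describes the letters and is not evidence of binding, and the lack of a match is not evidence that a site is absent.

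**Figure D1:**
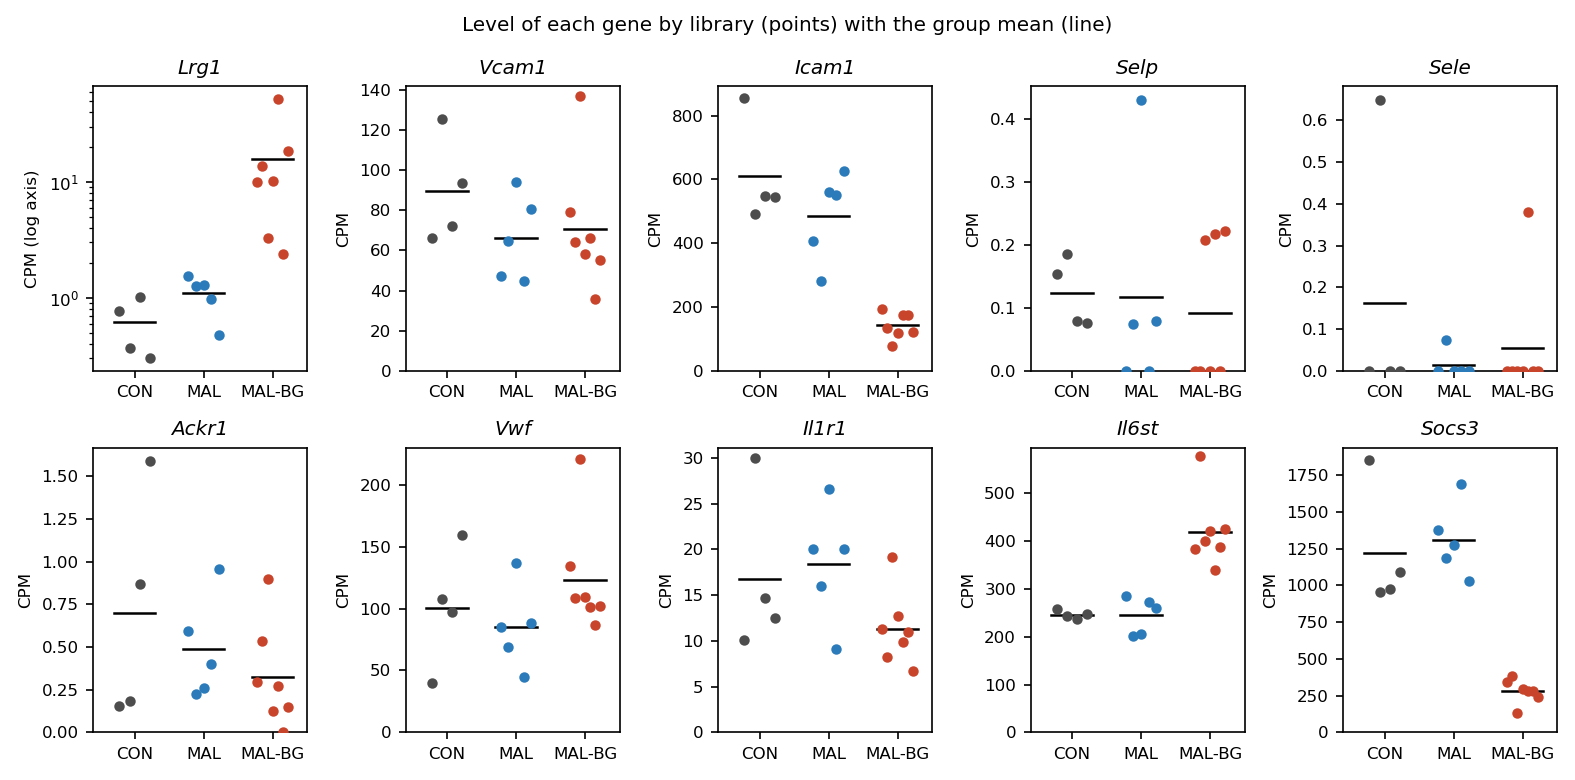
CPM of the 10 genes in each library (points) and the group mean (line) in CON (n = 4), MAL (n = 5), and MAL-BG (n = 7); the axis of Lrg1 is logarithmic and the others start at 0. All 7 MAL-BG libraries lie above the other 9 for Lrg1 and Il6st and below them for Icam1 and Socs3, and in the other panels the groups overlap. Of all genes tested, 6.17% lie above in this way and 6.36% below, and Lrg1 was chosen for its rise.

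Lrg1 lies on chromosome 17 from 56119678 to 56122001, minus strand (GENCODE M21, GRCm38). The 4 CON libraries held 0.768, 0.371, 1.02, and 0.303 CPM of Lrg1. The 5 MAL libraries held 1.53, 1.27, 1.29, 0.967, and 0.478 CPM. The 7 MAL-BG libraries held 9.96, 13.6, 3.31, 10.2, 51.9, 2.38, and 18.4 CPM. Every MAL-BG library was thus above every library without bacteria, as for 6.17% of all genes, and replicate 5 stood far above the others. These levels rest on few counts without bacteria, 31 in all CON libraries together and 68 in all MAL libraries, against 1802 in MAL-BG. CON averaged 0.617 ± 0.341 CPM (SD, n = 4), MAL averaged 1.11 ± 0.405 CPM (SD, n = 5), and MAL-BG averaged 15.7 ± 16.9 CPM (SD, n = 7) around a median of 10.2 CPM. Lrg1 had a log2 fold change of 4.64 ± 0.81 (SE) against CON and 3.82 ± 0.69 against MAL, the 15th and 18th largest rises of the 14565 genes, and no test is given because the gene was chosen for this rise. Without MAL-BG replicate 5 the log2 fold changes were 3.92 and 3.10. Between MAL and CON the log2 fold change was 0.82 ± 0.83 (SE), which did not pass the test (adjusted p = 0.999, edgeR quasi-likelihood test with Benjamini-Hochberg adjustment over all genes).

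Within MAL-BG, Lrg1 moved from library to library with genes of neutrophils, a cell that also carries CD11b. Of 16 neutrophil marker genes, 15 were in the table, and 13 were called higher and 0 lower in MAL-BG against CON, as well as against MAL, and the median log2 fold changes were 4.39 and 4.07 (all genes tested, -0.04 and -0.03). Among them, Ltf (lactoferrin) rose by 5.64 against CON (adjusted p = 0.00356, edgeR), and Elane (neutrophil elastase) by 5.93 (adjusted p = 0.0206). Lcn2 (lipocalin-2), a granule protein, rose by 4.94 (adjusted p = 0.00566). MAL-BG replicate 5 held most of these transcripts, and without it the mean CPM in MAL-BG went from 435 to 186 for Ltf, from 39.8 to 4.11 for Elane, and from 140 to 45.6 for Lcn2. The log2 fold changes against CON were then 4.39 for Ltf (adjusted p = 0.00422, edgeR), 3.29 for Lcn2 (adjusted p = 0.00652), and 2.58 for Elane, which was no longer called (adjusted p = 0.0986). Over the list, 11 genes were still called higher against CON and 13 against MAL, with medians of 2.92 and 2.71. Elane was at 0 in 2 CON and 2 MAL libraries, and Mpo (myeloperoxidase) at 0 in 3 CON and 2 MAL libraries. Elane had 31 counts in all CON libraries together and 15 in MAL, and Mpo had 85 and 14. These genes and Stfa2l1 passed the filter on low counts only through MAL-BG. A rise was thus a condition of their being tested, and they are among the 13 called higher. In contrast, Csf3r, which microglia also express, was -0.40 against CON (not called), and it made up most of the summed level of the list without bacteria. It was therefore left out of the sum of the other 14 genes, a choice made after the values had been seen.

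That sum ranged from 66.5 to 227 CPM in CON, from 53.4 to 356 in MAL, and from 212 to 14492 in MAL-BG. The MAL-BG libraries held 639, 2239, 375, 609, 14492, 212, and 3175 CPM. The highest sum, in replicate 5, went with the highest Lrg1, and the lowest, in replicate 6, with the lowest. In CON, by contrast, the highest Lrg1, 1.02 CPM in replicate 3, went with the lowest sum, 66.5 CPM. In MAL, the highest sum, 356 CPM in replicate 4, went with the lowest Lrg1 but one, 0.967 CPM. MAL replicate 5 was the lowest of MAL in both. As a share of this sum, Lrg1 ranged from 0.164 to 1.54% in CON, from 0.271 to 1.86% in MAL, and from 0.358 to 1.68% in MAL-BG, with medians of 0.439, 0.894, and 0.881%. The 3 groups overlapped in this share, whereas in the Lrg1 level MAL-BG lay above both other groups, which overlapped. The part of neutrophils in the Lrg1 level was not tested, and more cells of a type and more RNA per cell cannot be told apart in these bulk libraries, for Lrg1 as for the other genes.

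**Figure D2:**
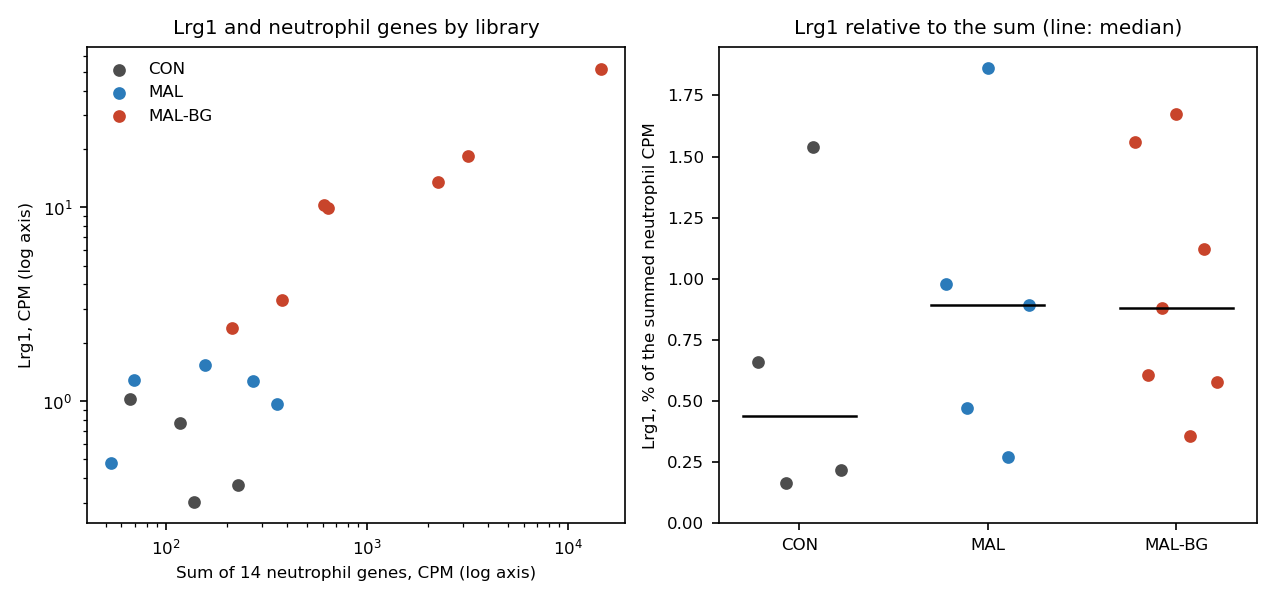
Left, Lrg1 CPM against the summed CPM of 14 neutrophil genes, 1 point per library, both axes logarithmic. Right, Lrg1 as a percentage of that sum, with the group median as a line; the share lies between 0.164 and 1.86% in all libraries and the groups overlap.

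Over the 7 MAL-BG libraries, the genes whose log2 CPM followed Lrg1 most closely were Asprv1 (Pearson r = 0.993), Trem3 (0.989), Bst1 (0.987), Cd300lf (0.978), E2f2 (0.978), Plaur (0.976), Lilr4b (0.976), Clec4e (0.973), Il1r2 (0.973), and Ccar2 (0.969), of 13786 genes ranked. By Spearman's correlation 0 of these 10 were among the 10 most alike, and the neutrophil genes Ltf, Camp, Ngp, and Mmp8 had a rho of 1. Without replicates 5 and 6, farthest from the median of Lrg1, r of these 10 genes lay between 0.925 and 0.990 over 5 libraries. Il1r2, the decoy receptor for IL-1, is among them, as are Trem3 and Clec4e, surface receptors of myeloid cells. Of the 10, Asprv1 and Bst1 were called higher against CON and the other 8 were not called. Against MAL, Asprv1 was called higher and Lilr4b lower (-0.98), and Bst1 (0.56) was not called. Asprv1 had 38 counts in all CON libraries together and 58 in MAL, and passed the filter on low counts only through MAL-BG. A rise was thus a condition of its being tested. S100a9 and S100a8, the subunits of calprotectin, had r of 0.962 and 0.959 (ranks 16 and 20). The endothelial genes had r of -0.025 (Vcam1), -0.328 (Vwf), and -0.560 (Il1r1), Icam1 and Socs3 had 0.301 and 0.377, and Il6st -0.079. Without the same pair of libraries these became -0.947, -0.962, and -0.955 for the endothelial genes, 0.612 and 0.756 for Icam1 and Socs3, and 0.391 for Il6st, so that they rest on those libraries. These values describe 7 libraries that differ in depth and composition, and carry no test.

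The list of genes other than Lrg1 was put together with results of these data known, so the tests that follow are not independent of that choice. Icam1, the receptor for the leukocyte integrins LFA-1 and Mac-1 (chromosome 9 from 21015985 to 21028817, plus strand), stood at 854, 493, 548, and 544 CPM in the CON libraries. It stood at 406, 283, 561, 552, and 625 CPM in MAL. In MAL-BG it stood at 195, 135, 78.9, 118, 176, 176, and 123 CPM. No MAL-BG library reached the lowest of the other 9. CON averaged 610 ± 165 CPM (SD, n = 4), MAL 485 ± 139 (SD, n = 5), and MAL-BG 143 ± 41.2 (SD, n = 7). Icam1 thus had a log2 fold change of -2.09 ± 0.24 (SE) against CON (adjusted p = 1.39e-05, edgeR) and -1.76 ± 0.23 against MAL (adjusted p = 4.00e-05). Library by library, 6.17% of all genes had all MAL-BG libraries above the other 9, and 6.36% had all below.

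Vcam1, the receptor for the integrin VLA-4 (chromosome 3 from 116109949 to 116129688, minus strand), did not pass the test. It ranged from 66.1 to 125 CPM in CON, from 44.9 to 93.9 in MAL, and from 36.0 to 137 in MAL-BG, and the 3 ranges overlapped. Its log2 fold change was -0.33 ± 0.29 (SE) against CON (adjusted p = 0.365, edgeR) and 0.10 ± 0.28 against MAL (adjusted p = 0.799). The value against MAL was -0.15 without MAL-BG replicate 3, the library with the highest Vcam1. Icam1 and Vcam1 both overlap an antisense transcript in GENCODE M21, by 511 and 61 exon bases, and whether the counting used the strand is not given in the sources used here.

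The selectins were barely detected. Selp had 6 counts in all CON libraries together, 7 in MAL, and 10 in MAL-BG, and no library had more than 5. Pooled over each group this was 0.121 CPM (exact Poisson 95% interval 0.0443 to 0.263), 0.113 (0.0456 to 0.234), and 0.0915 (0.0439 to 0.168), intervals that cover counting error only. Sele had 7 counts in CON, all in replicate 2, 1 in MAL, and 7 in MAL-BG, all in replicate 5. The other 3 CON, 4 MAL, and 6 MAL-BG libraries had 0 counts of Sele, and 3 counts over the 7 MAL-BG libraries would be 0.0274 CPM. The intervals of the 3 groups overlapped for each selectin, and neither was tested.

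Ackr1, an atypical chemokine receptor of venular endothelium and red cells (chromosome 1 from 173331886 to 173333750, minus strand), was also low. It had 2 to 21 counts per library in CON, 3 to 12 in MAL, and 0 to 13 in MAL-BG. Ackr1 had a log2 fold change of -1.13 ± 0.74 (SE) against CON (adjusted p = 0.224, edgeR) and -0.60 ± 0.72 against MAL (adjusted p = 0.520). Ackr1 shares 361 exon bases with Cadm3 on the same strand, and its counts are uncertain for that reason.

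Vwf, the von Willebrand factor that endothelial cells store and that binds platelets (chromosome 6 from 125546774 to 125686679, plus strand), ranged from 39.5 to 159 CPM in CON, from 45.0 to 137 in MAL, and from 86.9 to 221 in MAL-BG. The log2 fold change of 0.29 ± 0.33 (SE) against CON and 0.54 ± 0.31 against MAL did not pass the test (adjusted p = 0.499 and 0.169, edgeR). Platelets also hold Vwf mRNA, and of 9 platelet marker genes 6 were tested and Gp9 was called, 0.69 higher against CON (adjusted p = 0.00891) and 0.69 against MAL (adjusted p = 0.00613). The summed platelet markers ranged from 55.9 to 144 CPM in CON, from 47.1 to 148 in MAL, and from 63.7 to 95.6 in MAL-BG.

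**Figure D3:**
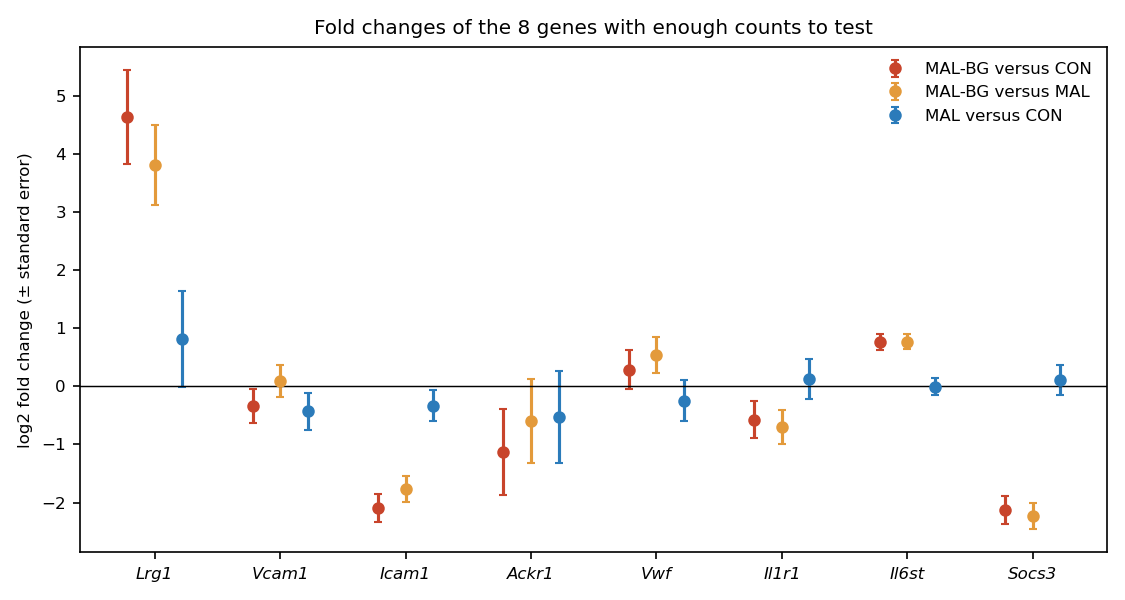
Log2 fold change (points) with its standard error (bars) of the 8 genes tested in MAL-BG against CON, MAL-BG against MAL, and MAL against CON. Icam1 and Socs3 lie near -2 and Il6st at 0.77 in both MAL-BG comparisons; Lrg1 was chosen for its rise and carries no test.

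Endothelial marker genes were present in every library, although the fraction was enriched for CD11b, which endothelium lacks. Of 21 brain endothelial genes, 7 were called higher in MAL-BG against CON and 10 against MAL, and 0 were lower, and the median log2 fold changes were 0.42 and 0.87. Leaving out 1 library at a time or changing the scaling left between 1 and 9 called higher against CON, and between 7 and 14 against MAL. Cldn5 (claudin-5), the tight junction protein, rose by 1.58 (adjusted p = 0.00522, edgeR) and 1.90 (adjusted p = 9.94e-04). Summed over the 21 genes, the level ranged from 1042 to 3541 CPM in CON, from 921 to 2603 in MAL, and from 2152 to 6148 in MAL-BG. Replicate 3 of MAL-BG, highest in Vcam1, Vwf, and Il1r1, was also highest in this sum. It was likewise the highest MAL-BG library in the summed choroid plexus (16556 CPM), mural (1772 CPM), and astrocyte (273 CPM) markers. In CON, Il1r1 was highest in replicate 2, which had the highest choroid plexus sum (54062 CPM) but not the highest endothelial sum. In MAL, replicate 3 was highest in Il1r1 and in the endothelial sum. The cells that gave these transcripts were not tested.

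Divided by that sum in the same library, Vwf made up 4.50 ± 0.53% in the CON libraries (SD, n = 4), 4.55 ± 0.65% in those of MAL (SD, n = 5), and 3.80 ± 0.58% in those of MAL-BG (SD, n = 7), and the groups overlapped. Vcam1 was 4.59 ± 1.82%, 3.71 ± 0.97%, and 2.14 ± 0.44%, and its MAL-BG libraries lay below all CON libraries (2.65 to 6.35%) but not below all MAL libraries (2.35 to 4.87%). Il1r1 was 0.860 ± 0.448%, 0.984 ± 0.088%, and 0.349 ± 0.081%, and its MAL-BG libraries (0.274 to 0.508%) lay below all MAL libraries (0.840 to 1.08%) and reached the lowest CON library (0.353%). Among all genes tested, such a ratio lay lower in all MAL-BG libraries for 19% against CON and 24.3% against MAL, and the endothelial sum itself was higher in MAL-BG. The ratios are a description and were not tested.

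**Figure D4:**
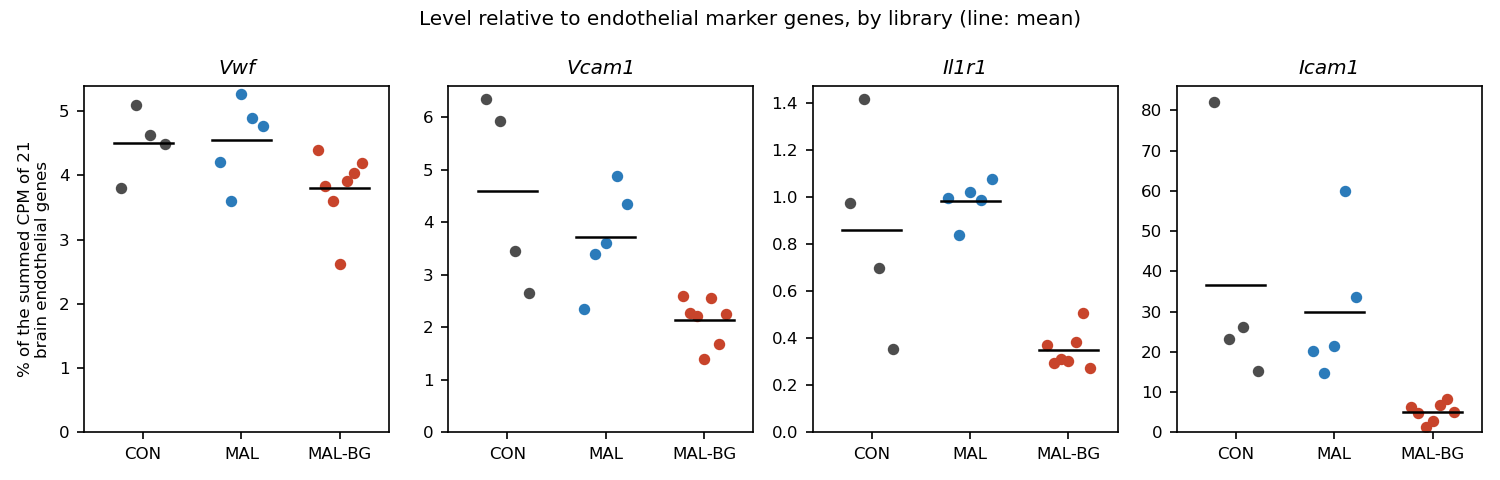
Level of Vwf, Vcam1, Il1r1, and Icam1 as a percentage of the summed CPM of 21 brain endothelial genes, 1 point per library with the group mean as a line. Vwf overlaps between the groups at about the same share, and the MAL-BG points of Vcam1 and Icam1 lie below all CON points.

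Il1r1, the signaling receptor for IL-1 (chromosome 1 from 40225080 to 40317257, plus strand), ranged from 10.1 to 30.0 CPM in CON, from 9.11 to 26.6 in MAL, and from 6.68 to 19.2 in MAL-BG. Il1r1 differed by -0.57 with an SE of 0.32 on the log2 scale against CON (adjusted p = 0.154, edgeR). Against MAL it was -0.70 ± 0.30 (adjusted p = 0.0662), and leaving out MAL-BG replicate 3 it was -0.88 (adjusted p = 0.0204). Of 13 other genes of the IL-1 pathway, 1 was called higher and 2 lower against CON, and 1 higher and 1 lower against MAL, with medians of -0.09 and -0.09. Il1a, the cytokine IL-1 alpha, fell by 2.80 against CON (adjusted p = 1.07e-05) and by 1.93 against MAL (adjusted p = 1.22e-04). Sigirr, an inhibitory receptor of the family, rose by 0.87 against CON (adjusted p = 0.0383) and by 1.18 against MAL (adjusted p = 0.00522). Il1b, the cytokine IL-1 beta, fell by 0.91 against CON (adjusted p = 0.0153) and was -0.19 against MAL (adjusted p = 0.577).

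Il6st (chromosome 13 from 112464070 to 112510086, plus strand) was the evenest of the genes among CON libraries, with 257, 243, 236, and 248 CPM. MAL libraries held 284, 202, 206, 273, and 261 CPM. MAL-BG libraries held 384, 577, 400, 421, 339, 387, and 425 CPM. All 7 MAL-BG libraries were above all 9 others, as for 6.17% of all genes, and replicate 2 stood apart at the top. CON averaged 246 ± 8.73 CPM (SD, n = 4), MAL 245 ± 38.5 (SD, n = 5), and MAL-BG 419 ± 75.1 (SD, n = 7). Il6st rose by 0.77 ± 0.14 (SE) against CON (adjusted p = 4.69e-04, edgeR) and 0.77 ± 0.13 against MAL (adjusted p = 2.64e-04).

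Microglial marker genes were higher in MAL-BG as well. Of 12 such genes, 8 were called higher and 0 lower in each MAL-BG comparison, with medians of 0.78 and 0.77. Their summed level ranged from 16930 to 27477 CPM in CON, from 17441 to 30064 in MAL, and from 37367 to 50581 in MAL-BG. Divided by this sum, a ratio chosen after the values had been seen, Il6st made up 1.19 ± 0.24% in the CON libraries (SD, n = 4), 1.09 ± 0.13% in those of MAL (SD, n = 5), and 0.952 ± 0.166% in those of MAL-BG (SD, n = 7), with overlapping groups. Within MAL-BG, the highest Il6st (577 CPM, replicate 2) went with a microglial sum of 45604 CPM. The highest sum (50581 CPM, replicate 1) went with 384 CPM of Il6st. In MAL the highest libraries also differed, and in CON replicate 1 was highest in both. The part of the microglial share in the rise of Il6st was not tested.

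Socs3 (chromosome 11 from 117966079 to 117970047, minus strand) had 1853, 954, 979, and 1091 CPM in the CON libraries. It had 1376, 1188, 1278, 1694, and 1029 CPM in MAL. In MAL-BG it had 340, 387, 129, 293, 280, 285, and 240 CPM. The highest MAL-BG library was below the lowest of the other 9, as for 6.36% of all genes. CON averaged 1219 ± 427 CPM (SD, n = 4), MAL 1313 ± 248 (SD, n = 5), and MAL-BG 279 ± 81.2 (SD, n = 7). Socs3 fell by 2.13 ± 0.24 (SE) on the log2 scale against CON (adjusted p = 1.22e-05, edgeR) and by 2.23 ± 0.23 against MAL (adjusted p = 8.35e-06). Thus the receptor chain and its inhibitor moved in opposite directions in MAL-BG.

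Icam1 and Socs3 were also lower relative to the microglial sum. Icam1 was 2.85 ± 0.37% of it in the CON libraries, 2.20 ± 0.79% in those of MAL, and 0.324 ± 0.096% in those of MAL-BG, and Socs3 was 5.67 ± 1.12%, 5.85 ± 0.95%, and 0.627 ± 0.167%, with MAL-BG below all other libraries for both. The microglial sum was itself higher in MAL-BG, and dividing by it lowers the ratio of any gene there. How many of all genes lie lower in this way was not counted, and these ratios were not tested. Markers of other cells in the fraction fell as well. The 11 choroid plexus genes were all called lower against CON (median log2 fold change -2.56) and 10 of them against MAL (-2.24), and their sum ranged from 13959 to 54062 CPM in CON, from 6473 to 42600 in MAL, and from 1771 to 16556 in MAL-BG. Of 9 astrocyte genes, 4 were called lower in each comparison (medians -0.88 and -0.63), among them Gfap, which fell by 2.72 against CON (adjusted p = 5.67e-04, edgeR), and their sum ranged from 256 to 530 CPM in CON, from 300.1 to 472 in MAL, and from 157 to 273 in MAL-BG. The part of these cells in the falls was not tested.

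Genes that cells switch on within minutes, a list added after the data had been seen because tissue dissociation is known to induce them, were also lower in MAL-BG. Of 12 such genes, 8 were called lower and 0 higher in each MAL-BG comparison, with medians of -1.03 and -1.07. Egr1 fell by 1.23 against CON (adjusted p = 0.00291, edgeR) and by 1.64 against MAL (adjusted p = 2.71e-04), and Atf3 had changes of -1.32 (adjusted p = 0.00159) and -1.16 (adjusted p = 0.00271). Summed, the 12 genes held 16854 to 32956 CPM in CON, 18113 to 38102 in MAL, and 7365 to 20445 in MAL-BG. MAL-BG overlapped the other groups in this sum through replicate 2 alone. The library with the highest sum of each group, replicate 1 of CON, replicate 4 of MAL, and replicate 2 of MAL-BG, was also the one with the highest Socs3, and the lowest sum of MAL-BG, in replicate 3, went with its lowest Socs3 and Icam1. In CON, replicate 1 was also highest in Icam1, and replicate 2 was lowest in both Icam1 and the sum. In the other groups the highest Icam1 did not go with the highest sum. The highest MAL library, replicate 5, had the lowest sum of MAL, and the highest MAL-BG library, replicate 1, the lowest sum but one. CON replicate 1 and MAL replicate 4 were also the highest of their groups in the microglial sum (27477 and 30064 CPM). Both were the lowest of their groups in the endothelial and choroid plexus sums. In MAL-BG the highest microglial sum was in replicate 1 (50581 CPM), not in replicate 2. The part of the 12 genes' response, or of the mix of cells, in the falls of Icam1 and Socs3 was not tested.

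Compared per kilobase of exon (RPKM), Socs3 was the most abundant of the genes without bacteria, at 422 ± 148 (SD, n = 4) in CON and 454 ± 85.9 (SD, n = 5) in MAL. Icam1 followed at 140 ± 37.8 and 111 ± 31.8, then Il6st at 22.2 ± 0.787 and 22.1 ± 3.47. Vcam1 (10.1 ± 3.02 and 7.47 ± 2.38) and Vwf (6.28 ± 3.06 and 5.28 ± 2.10) came next and in MAL differed by less than their spread, and Il1r1 (2.64 ± 1.41 and 2.89 ± 1.01) was above Ackr1 and Lrg1. In MAL-BG, Socs3 remained highest at 96.5 ± 28.1 (SD, n = 7), and Il6st (37.7 ± 6.76) and Icam1 (32.8 ± 9.45) lay within their spread of each other. Lrg1 (mean 11.1), Vcam1 (7.99 ± 3.60), and Vwf (7.68 ± 2.82) followed and were likewise within their spread.

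In most lists of the pathways around these genes, called genes went in both directions. Of 15 other genes of endothelial activation tested, 2 were called higher and 7 lower against CON (median -0.42), and 3 higher and 3 lower against MAL (median -0.41). Cxcl1, a neutrophil-attracting chemokine, fell by 3.93 against CON (adjusted p = 6.02e-06, edgeR) and by 2.26 against MAL (adjusted p = 2.58e-04). Tnfaip3 (A20) and Nfkbia (IkB alpha), feedback inhibitors of NF-kB, fell by 2.49 (adjusted p = 5.75e-06) and 1.40 (adjusted p = 0.00198) against CON. Cd34 and Plvap, surface proteins of endothelium, were the 2 called higher against CON, at 1.17 (adjusted p = 1.08e-05) and 0.97 (adjusted p = 0.0224), named after their values were seen. Many cells besides endothelium express the genes that fell.

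Among 12 tested ligands and receptors of the IL-6 family, 2 were called higher and 2 lower in each MAL-BG comparison (medians 0.16 and 0.29). Il11ra1, the IL-11 receptor, rose by 0.90 against CON (adjusted p = 0.0170, edgeR), and Ctf1 (cardiotrophin-1) and Cntfr, the CNTF receptor, fell by 1.99 (adjusted p = 0.00915) and 1.45 (adjusted p = 0.00429). Il6 itself was -0.05 against CON (adjusted p = 0.897) and 0.39 against MAL (adjusted p = 0.184). Of 11 genes of the JAK-STAT3 signal and its inhibitors, 0 were called higher and 1 lower against CON, and 0 higher and 2 lower against MAL (medians -0.05 and -0.15). Cish, an inhibitor related to SOCS3, fell by 2.12 against CON (adjusted p = 6.14e-04) and by 2.24 against MAL (adjusted p = 3.15e-04), while Socs1 was -0.01 and -0.18 (adjusted p = 0.969 and 0.537).

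Of 10 tested genes known to respond to STAT3, 1 was called higher and 3 lower against CON (median 0.08), and 1 higher and 4 lower against MAL (median -0.10). Lcn2, which is also in the neutrophil list, was the one called higher. Pim1, a kinase, fell by 1.93 against CON (adjusted p = 6.34e-06, edgeR), and Bcl3, a partner of NF-kB, by 1.53 (adjusted p = 4.67e-06).

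On the side of the leukocytes, 13 ligands of the adhesion receptors were tested, 3 called higher and 2 lower against CON (median 0.22), and 1 higher and 2 lower against MAL (median 0.04). Selplg (PSGL-1), the ligand of the selectins, rose by 1.13 against CON (adjusted p = 3.03e-04, edgeR) and by 1.05 against MAL (adjusted p = 2.94e-04). Microglia also express Selplg, which averaged 1386 ± 337 CPM (SD) over the CON libraries and 3028 ± 555 CPM over those of MAL-BG, and the microglial sum given above was higher in MAL-BG as well; its part was not tested. Itga4, the alpha chain of VLA-4, fell by 1.01 (adjusted p = 3.81e-04) and 1.51 (adjusted p = 1.43e-05), and Itgal, the alpha chain of LFA-1, by 0.61 (adjusted p = 0.0430) and 1.24 (adjusted p = 3.93e-04). Itgam, which encodes CD11b, was 0.26 and 0.22 (adjusted p = 0.112 and 0.149).

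In the TGF-beta and endoglin arm, through which LRG1 is known to act, 3 of 13 genes were called higher and 1 lower in each MAL-BG comparison (medians 0.29 and 0.43). Smad1 and Smad5, mediators of that arm, rose by 0.80 (adjusted p = 1.77e-04, edgeR) and 0.61 (adjusted p = 0.00138) against CON, and Id2 fell by 0.91 (adjusted p = 1.11e-04). Its target Id1 was -0.24 against CON (adjusted p = 0.672) and 0.44 against MAL (adjusted p = 0.389), and the co-receptor Eng (endoglin) was 0.29 (adjusted p = 0.133) and 0.43 (adjusted p = 0.0218, below the fold threshold). Of 3 atypical chemokine receptors tested besides Ackr1, 2 were called lower against CON and 1 against MAL, and Ccrl2 fell by 1.93 (adjusted p = 2.02e-05) and 1.74 (adjusted p = 3.40e-05).

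**Figure D5:**
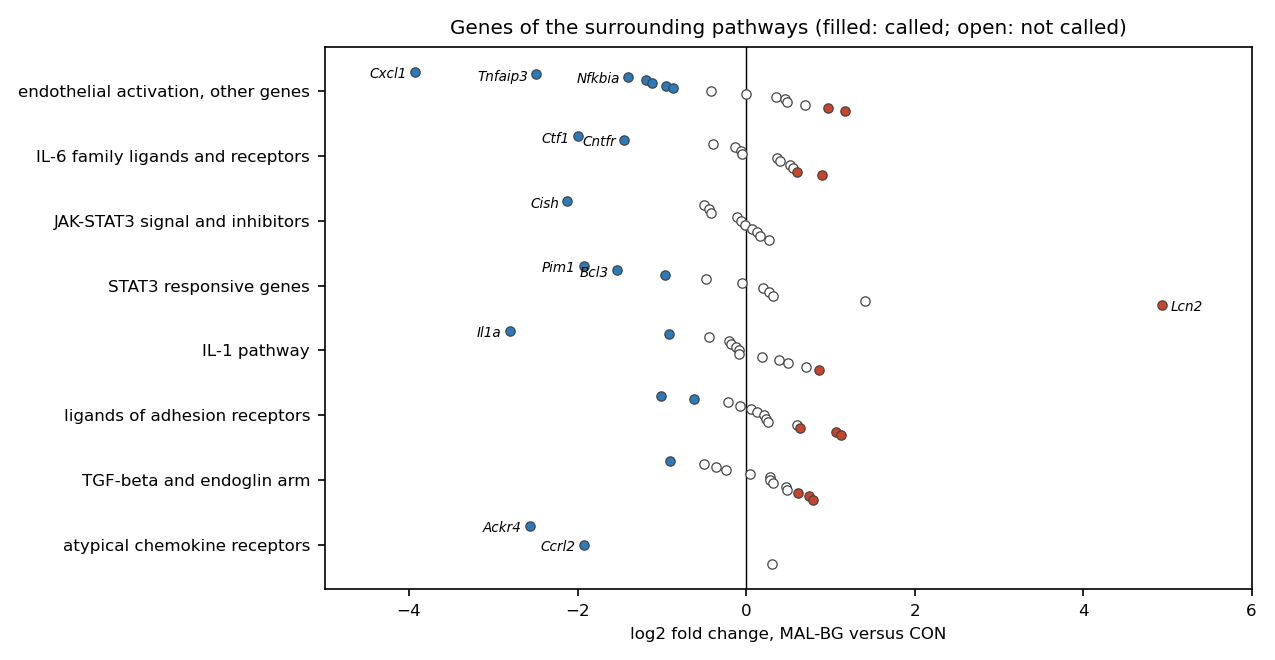
Log2 fold change in MAL-BG against CON of each tested gene of the surrounding pathways, 1 row per list; filled points were called (red higher, blue lower) and open points were not. Lcn2 at 4.94 is the farthest to the right and Cxcl1 at -3.93 the farthest to the left, and most genes of the JAK-STAT3 list lie near 0.

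Other cell types were represented by 12 mural genes (0 called higher and 2 lower against CON, 2 and 3 against MAL), 6 fibroblast genes (0 and 1 in each comparison), and 7 monocyte genes (0 and 2, then 0 and 3). Rgs5 in the mural list fell by 1.42 against CON (adjusted p = 0.00895, edgeR). Pdgfra in the fibroblast list fell by 1.40 (adjusted p = 0.00446), and Vcan in the monocyte list by 1.76 (adjusted p = 0.00293). Which cells gave these transcripts was not tested. Other genes of these lists stood near or above 0 without being called, among them Acta2 (0.90, adjusted p = 0.0981) and Tagln (0.93, adjusted p = 0.108) of smooth muscle, Dcn of fibroblasts (0.15, adjusted p = 0.805), and Chil3 of monocytes (2.14, adjusted p = 0.0849). The median log2 fold changes against CON were -0.0027 for mural, -0.52 for fibroblast, and -0.14 for monocyte genes.

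Between MAL and CON, the log2 fold changes of the 8 genes ranged from -0.53 ± 0.79 (SE) for Ackr1 to 0.82 ± 0.83 for Lrg1, and each had an adjusted p of 0.999 (edgeR). At an unadjusted p under 0.05, 0 of the 8 and 212 of the 14565 genes were found, and DESeq2 likewise called 0 genes. The CPM ranges of MAL and CON overlapped in all 10 genes, and 0.714% of the genes tested had ranges apart. The 2 MAL-BG comparisons share the MAL-BG libraries, so their like values are not independent of each other.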

How the data were processed

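RNA from CD11b+ brain cells was made by the authors into stranded poly(A) libraries. Paired reads were aligned with STAR to GRCm38.p6 and counted by HTSeq (version 2.5 in the submitters' processing notes, another in the paper). The authors deposited these counts without normalization. The mode, strand option, and annotation of the counting are not given in the sources used here. The 16 columns were assigned to groups by their names, whose running numbers match no sample title, and no source used here names the batch of a column. The authors' own model held a batch term, so the tests here leave out a batch that the authors fitted.

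In R 4.3.3, the filter asked for over 10 counts in 4 or more libraries and kept 14565 of 24421 rows (27 rows carry names altered to dates). One fit of edgeR 4.0.16 (quasi-likelihood) held all 3 groups on TMM-scaled library sizes, with Benjamini-Hochberg adjustment over all genes. A gene was called, and is said to have risen or fallen, where the adjusted p was under 0.05 and the log2 fold change exceeded 0.58 in size. The standard error is the log2 fold change divided by the root of the F statistic. RPKM used exon lengths of GENCODE M21, and likeness to Lrg1 used log2 CPM with a prior count of 2 among genes with a mean of at least 1 CPM. Replicates differed by more than counting noise (smallest chi-square per degree of freedom 9.98), so the spread between mice sets the precision. Steps were tested on simulated data.

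The 10 genes and all lists were chosen with earlier results of these data known. Named genes are these 10, the 10 most like Lrg1, and up to 3 genes per list with the largest change against CON among those called in the same direction in both MAL-BG comparisons, and others are given for their role. Alternatives were other scalings, filters, DESeq2 1.42.0 without a batch term, fits of the compared groups only, thinning to a common total, no fold threshold, and each library left out in turn.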

Additional observations from a re-analysis of the deposited data

Results flagged for a closer look

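In 10 of the 30 sets of libraries (10 genes in 3 groups) the highest library stood apart from the others of its group by Dixon's test. Chance gives this in about 1 of 20 sets where values are spread normally, which CPM on a linear scale need not be. Sele had counts in only 1 library of each group, so the test flags its sets whatever the level. The sets also share libraries, so the 2 rates cannot be set against each other. In MAL-BG, replicate 5 stood apart for Lrg1 at 51.9 CPM (next 18.4), replicate 3 for Vcam1 at 137 CPM (next 79.4) and for Vwf at 221 CPM (next 134), and replicate 2 for Il6st at 577 CPM (next 425). In CON, replicate 1 stood apart for Icam1 at 854 CPM (next 548) and for Socs3 at 1853 CPM (next 1091). The selectins were set apart by single libraries with a few counts, Selp at 0.430 CPM in MAL replicate 3, and Sele at 0.649 CPM in CON replicate 2, 0.0746 CPM in MAL replicate 2, and 0.380 CPM in MAL-BG replicate 5. The neutrophil sum was highest in MAL-BG replicate 5, the endothelial sum highest in MAL-BG replicate 3, and the sum of immediate early genes highest among CON libraries in replicate 1.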

How the results depend on the processing

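Icam1, Socs3, and Il6st kept their calls and directions in both MAL-BG comparisons under all alternatives run, and 3 of the 7 genes other than Lrg1 were called against CON in each. Against MAL, 4 were called with total counts only, with scaling by mean log2 CPM, and with only the 2 groups fitted. The gene added was Il1r1 with total counts only (-0.83, adjusted p = 0.0459, edgeR) and with the 2 groups (-0.71, adjusted p = 0.0440), and Vwf with scaling by mean log2 CPM (0.76, adjusted p = 0.0333). Without CON replicate 2, MAL replicate 4, or MAL-BG replicate 3, Il1r1 was called as well (-0.71, -0.88, and -0.88, adjusted p = 0.0355, 0.0197, and 0.0204). Over all genes, 4490 to 6566 were called against CON and 4288 to 6457 against MAL, and 4048 to 5418 and 3809 to 4877 with 1 library left out, while 0 were called between MAL and CON throughout. Scaling by mean log2 CPM moved the median of all genes to 0.21 and 0.19 and the share of calls that were higher to 57.8% and 58.3%, and total counts only moved them to -0.17 and -0.16 and to 22.4% and 20.1%, against 34.4% and 33.4%. Values near 0 that were not called turned sign. Vcam1 against MAL was -0.036 with total counts only and -0.15 to 0.24 with 1 library left out, below 0 without MAL replicate 1, MAL replicate 4, or MAL-BG replicate 3. Between MAL and CON, Il6st was 0.0022 with upper-quartile scaling, 0.027 with scaling by mean log2 CPM, and 0.012 with the 2 groups. With 1 library left out it lay between -0.068 and 0.052, Vwf between -0.53 and 0.057, Il1r1 between -0.056 and 0.56, and Socs3 between -0.0029 and 0.37. The cause was not tested. With Spearman's in place of Pearson's correlation, 0 of the 10 genes most like Lrg1 were shared, for a cause that was not tested, and with a prior count of 0.5 all 10 were. With Csf3r kept in the neutrophil sum, the median share of Lrg1 in MAL-BG was 0.523%, and without it 0.881%. Of 1020 list medians, over scalings and libraries left out, 994 moved by less than the median standard error of their genes. Counts limited Selp and Sele, which were not tested. No paired analysis was possible because the running numbers of the columns match no replicate number in the labels.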
